A study of Mus musculus with 6 samples.

Results

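Genes of the primary cilium and of intraflagellar transport were compared between Fkbp8 mutant and wildtype mouse embryos. The list held 39 genes chosen by name, in 6 groups: 10 subunits of the IFT-B complex, 6 of IFT-A, 5 motor subunits, 7 BBSome and BBS genes, 4 ciliary GTPases and 7 hedgehog regulators found at the cilium. On the array, 41 of 34967 gene probes carried the symbol of a listed gene, and they covered 37 of the 39. No probe was named for Ttc21b or Arl13b. Of the 41 probes, 38 (for 36 genes) were bright enough to be tested, among 21688 tested probes in all. Posterior tissue, cut just behind the forelimb bud, was taken at E9.5 from the offspring of heterozygous Fkbp8 carriers. The mutants (replicates a, b and c) and the wildtypes (replicates d, e and f) gave 3 arrays each, and every sample had its own 1-colour CodeLink array. The mutation, the strain and the sex of the embryos are not described in the labels, and the source label of mutant a speaks of embryos in the plural, so pooling there is not settled. Separate litters are not named, so a p-value here reflects only how far these 6 samples lie apart, which may be technical.

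The primary cilium is a single antenna on most vertebrate cells, built on a basal body and grown by intraflagellar transport. IFT-B trains are carried to the tip by kinesin-2, and IFT-A trains with the dynein-2 motor bring cargo back. Hedgehog signals pass through this organelle in the mouse: the receptor Ptch1 leaves the cilium, Smo enters it, and Gli proteins are processed there into activators or repressors. Loss of cilium genes therefore disturbs dorsoventral patterning of the neural tube, and the series' title names that patterning as a target of Fkbp8.

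No cilium gene on the list passed the test between mutant and wildtype tissue, and nearly all differences were small. Values below are log2 spot intensities after background correction and normalization, and changes are mutant minus wildtype. In limma, with Benjamini-Hochberg adjustment, 26 of all probes tested (0.12%) had an adjusted p under 0.05 (0.0646% higher and 0.0553% lower in mutants). Among the 38 member probes 0 did, and 4 had an unadjusted p under 0.05, all of them higher in mutants. These 4 are 10.5% of the member probes, where 12.2% of all probes tested reached the same unadjusted p (6.43% higher and 5.81% lower). The 4 higher became 1 without mutant a, mutant b or wildtype d, and 0 without wildtype f. In that order, 5.26%, 5.26%, 2.63% and 0% of member probes reached this unadjusted p in either direction. The shares of all probes tested were 13.3%, 10.6%, 9.55% and 7.995%. Members stood at 15.8% beside 13.3% of all probes without mutant c, and at 7.89% beside 8.95% without wildtype e. The lowest adjusted p among members was 0.311, for Ift80. Mutant and wildtype arrays did not overlap for 7 member probes, 6 higher and 1 lower, or 18.4%, beside 19.7% of all probes tested (11.2% higher and 8.56% lower). The 6 became 12 without mutant c and 10 without wildtype e, and the 1 lower became 2 without either of these and 3 without wildtype f. With fewer arrays in a group, groups separate more easily for any probe. The share of all probes with groups not overlapping was not counted in these fits, so the 19.7% is no match for them. The median change of the members was 0.03, and that of all probes tested 0.0085. Positive changes were found for 27 of 38 member probes and for 52.4% of all probes tested. That split was 20 of 38 with cyclic loess normalization and 19 of 38 without mutant b.

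The 95% interval from limma, taken probe by probe, lay inside 1.5-fold in both directions for 36 of the 38 member probes, as it did for 20188 of all 21688 probes tested. Within those 36, the lowest bound was 0.727-fold, for Rab23, and the highest 1.42-fold, for Ift81. The exceptions were Kif3a and Ift46, which each had a spot near background on 1 mutant array. In the same fit the ventral neural tube factors Nkx6-1 (1.14, SE 0.11, adjusted p = 0.00853) and Foxa2 (1.08, SE 0.14, adjusted p = 0.0403) passed. The correction shrinks the fold changes of dim probes, and the 1.5-fold statement holds on that scale.

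**Figure D1:**
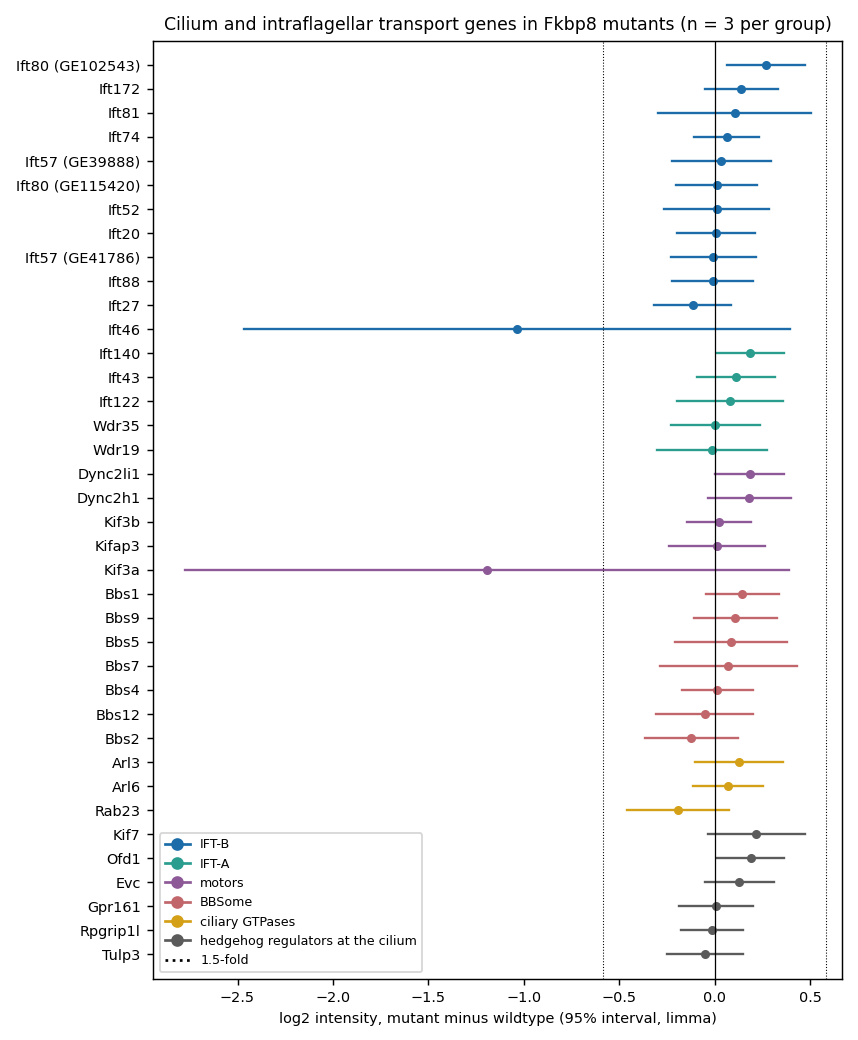
Change in log2 intensity, mutant minus wildtype, for each of the 38 tested member probes (point) with its 95% interval from limma (line), coloured by complex; dotted lines mark 1.5-fold. All intervals but those of Kif3a and Ift46 stay inside the dotted lines, and most cross 0.

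The labels were checked first. Fkbp8 signal in mutants (6.23 ± 0.10, SD, n = 3) did not rise above background on any of the 3 arrays and was at least 18.8-fold below that of wildtypes (10.66 ± 0.09, SD, n = 3). The Y-linked Eif2s3y was detected in 3 of 3 mutants and 0 of 3 wildtypes, and Xist showed the reverse at 1 probe, while its other probe was above background on no array. Kdm5d, also Y-linked, was above background on all arrays, at 8.28 ± 0.09 in mutants and 7.65 ± 0.08 in wildtypes (SD, n = 3 each). Genotype and sex-linked expression cannot be told apart in these arrays, for any gene below. Of the tissue markers, 8 of 9 tailbud and posterior Hox genes and 8 of 8 somite genes were above background on all 6 arrays. So were 3 of 8 forebrain and midbrain genes and 3 of 8 listed heart genes, although Hesx1 and Otx2 of the first list and Myh6, Myh7, Nkx2-5 and Tnnt2 of the second were above it on none. Of 6 genes of motile ciliated cells, 1 was above background on all 6 arrays and 3 on none, namely the master factor Foxj1 and the axonemal dyneins Dnah5 and Dnah11. Neural tube markers were above background on all 6 arrays for 6 of 7 genes, and 1 of 7 changes was positive, that of Nkx6-1 (median of the list -0.22). Of the 2 that passed, Nkx6-1 was higher and the other lower in mutants. Summed linear levels, Nkx6-1 included, were 3818 to 4053 in mutants and 3438 to 3891 in wildtypes. Erythroid markers were higher in mutants for 10 of 10 genes (median change 0.26, 0 passed), with summed linear levels of 83460 to 107104 in mutants and 86087 to 106551 in wildtypes; the part of either list in the results was not tested. In bulk tissue fewer cells of a type and less RNA per cell cannot be told apart.

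A short promoter element was shared by many members, a feature not used to choose them. RFX transcription factors, known as activators of cilium genes, bind an element called the X-box, whose core is an inverted repeat. Promoter windows from RefSeq (GRCm38.p6), 250 bases before to 50 after each start, were found for 35 of the 39 members, as 38 windows; Ift80, Ift81, Ift122 and Dync2li1 were not matched. The half-site GTTGCC, on either strand (reverse complement GGCAAC), was in 13 of these 38 windows (34.2%), 1 window for each of 13 genes. It was in 12.5% of all 32851 windows, in 12.6% of windows of protein-coding genes and in 27.2% of the 81 windows of other primary cilium genes described further on. The palindromic form of the X-box, with both arms of the repeat, was in 1.03% of all windows and in 1 member window (2.63%), that of Bbs7. It was in 7.41% of the 81 windows of other primary cilium genes. These letters are a description and not evidence of binding. The sequences of 3 members are shown because they hold the half-site upstream of the start and differ in how the second repeat looks; capitals mark the match. The Bbs7 window (chr3:36613484-36613523, minus strand) holds the palindromic form 121 bases before the start, overlapping its half-site. The windows of Ift140 (chr17:25015965-25015994, plus strand) and Kif3a (chr11:53567259-53567288, plus strand) have theirs 109 and 98 bases before it.
Bbs7: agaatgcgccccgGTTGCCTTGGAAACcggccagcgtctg
Ift140: gcgtgttgtgacGGCAACctcgcgcccttg
Kif3a: caccccgcaggcGTTGCCccagtctagcgt

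Changes were set beside this feature as a description. Tested probes of members that hold it had a median change of 0.07 (13 probes of 12 genes, from -1.20 to 0.19), and those of matched members without it had a median of 0.01 (20 probes of 20 genes, from -1.03 to 0.22). Both ranges reached their low end through a single probe with a near-background spot, Kif3a and Ift46. The RFX factors were measured by 6 tested probes for 5 genes, and 0 passed in limma. Of the 6 probes, 2 (33.3%) had an unadjusted p under 0.05, beside 12.2% of all probes tested. Rfx7 had the smallest p, with a change of -0.22 (SE 0.09, adjusted p = 0.391), and its mutant arrays all lay below its wildtype arrays. Because 0 of its 3 mutant spots rose above background, only the wildtype arrays made Rfx7 bright enough to be tested. A probe admitted through its brighter group is already selected for a difference. The p of Rfx7, and the 33.3% that counts it, therefore decide nothing about the RFX factors. Rfx3 was 0.19 higher at its brighter probe (SE 0.08, adjusted p = 0.396) and 0.07 higher at the dimmer one (SE 0.11, adjusted p = 0.828). Rfx4, which is known for ventral neural tube cilia, had a change of -0.16 (SE 0.09, adjusted p = 0.526).

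IFT-B, the complex that builds and extends the cilium, had 12 tested probes for all 10 listed genes, with a median change of 0.01, which was -0.06 without mutant b and -0.0034 with cyclic loess. Ift80, a subunit at the edge of the complex, had the smallest p. Its probe GE102543 read 9.17, 9.45 and 9.30 in mutants a, b and c and 9.09, 9.02 and 8.996 in wildtypes d, e and f. All 3 mutants lay above all 3 wildtypes at that probe. The change was 0.27 (SE 0.09, unadjusted p = 0.0155, adjusted p = 0.311), and the exact two-sided permutation test gave p = 0.1, the smallest that 3 against 3 allows. The other Ift80 probe, GE115420, made for the same RefSeq transcript, read 9.19, 9.32 and 9.01 in mutants and 9.19, 9.12 and 9.19 in wildtypes, a change of 0.01 (SE 0.09, adjusted p = 0.974). The Ift80 probes therefore differed: the groups overlapped at GE115420 and not at GE102543, and the mean of both gave 0.14 (adjusted p = 0.532).

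Ift88, the subunit lost in the classic polycystic kidney mouse and needed for cilia to form, averaged 8.38 ± 0.15 in mutants and 8.39 ± 0.07 in wildtypes (SD, n = 3 each). Its 95% interval ran from -0.22 to 0.20. The tubulin-binding pair Ift74 and Ift81 had changes of 0.06 (SE 0.07) and 0.10 (SE 0.18). Ift81 was among the least reproducible members, with 7.85, 8.09 and 7.35 in the mutants against 7.76, 7.74 and 7.47 in the wildtypes. Ift20, which also works at the Golgi in sorting cargo to the cilium, read 10.81 ± 0.12 in mutants and 10.80 ± 0.09 in wildtypes (SD, n = 3 each). Ift27, a small GTPase of the complex, had a change of -0.12 (SE 0.09, adjusted p = 0.622). Ift52, a core scaffold subunit, had a change of 0.01 (SE 0.12). For Ift57 the probes gave 0.03 (SE 0.11) and -0.01 (SE 0.10), and the groups overlapped at both. Ift172, the large subunit at the train's turnaround, was 0.14 higher (SE 0.08, adjusted p = 0.534), and its other probe was near background on all 6 arrays.

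Ift46, which helps carry dynein arms and is a core member of the complex, was chosen for a closer account after its values were seen. It read 8.86, 8.89 and 6.14 in mutants a, b and c and 9.05, 9.05 and 8.90 in wildtypes d, e and f. Mutant c alone was far below the rest. Its spot there had a background-subtracted intensity of 11.5 and an area of 37 pixels, against 420 to 490 and 76 to 81 pixels on the other 5 arrays. The fitted change was -1.03 (SE 0.63, 95% interval -2.46 to 0.40, adjusted p = 0.536). Without mutant c it was -0.12 (adjusted p = 0.576). Mutants a and b still lay just below the lowest wildtype.

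IFT-A, the complex of return transport and of cargo entry, had 5 tested probes for 5 of its 6 listed genes and a median change of 0.08. Ift140 read 7.81, 7.84 and 7.74 in mutants and 7.54, 7.70 and 7.59 in wildtypes. The groups did not overlap, and the gap between the lowest mutant and the highest wildtype was narrow. The change was 0.19 (SE 0.08, unadjusted p = 0.0405, adjusted p = 0.383). Over the alternatives its change ran from 0.16 to 0.26, and its lowest adjusted p was 0.329. Ift43 was 0.11 higher (SE 0.09) and Ift122, whose loss ventralizes the mouse neural tube, 0.08 higher (SE 0.12). Wdr19 and Wdr35 had changes of -0.01 (SE 0.13) and 0.0037 (SE 0.10). Wdr19 was near background on mutant c (6.59, against 6.82 to 7.07 on the other 5 arrays). Without mutant b the median change of this complex was -0.04.

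Motor subunits had 5 tested probes for all 5 listed genes, with a median change of 0.02. Of dynein-2, the return motor, the list holds the heavy chain and a light intermediate chain. Dync2li1, its light intermediate chain, read 8.73, 8.84 and 8.65 in mutants and 8.61, 8.54 and 8.52 in wildtypes. Its groups did not overlap, at a change of 0.18 (SE 0.08, unadjusted p = 0.0474, adjusted p = 0.402). A further Dync2li1 probe was near background on all 6 arrays. Dync2h1, the heavy chain that moves the motor, read 8.57 and 8.72 in mutants a and c, with the spot of mutant b masked by the scanner software, and 8.48, 8.52 and 8.38 in wildtypes. Its change rests on 5 arrays and was 0.18 (SE 0.09, adjusted p = 0.48), and 0.11 without mutant c. Light chains that dynein-2 shares with other dyneins, outside the list, had changes of -0.0026 (Dynlrb1, SE 0.10) and 0.06 (Dynlt3, SE 0.12).

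Kif3b, a motor subunit of kinesin-2, differed little between arrays, with 10.03, 9.99 and 9.96 in mutants and 10.03, 10.00 and 9.89 in wildtypes. Its 95% interval ran from -0.15 to 0.19. Kifap3, the kinesin-associated subunit, had a change of 0.01 (SE 0.11). Kif3a, the partner of Kif3b, was also described in full after its values were seen, and it read 5.98, 8.76 and 9.21 in mutants a, b and c and 9.19, 9.08 and 9.25 in wildtypes. Mutant a alone was near background. There the spot had a background-subtracted intensity of 4.86 and an area of 29 pixels, against 397 to 567 and 77 to 83 pixels elsewhere. The fitted change of Kif3a was -1.20 (SE 0.69, 95% interval -2.78 to 0.39, adjusted p = 0.515), and without mutant a it was -0.19 (adjusted p = 0.578).

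Single near-background spots like those of Kif3a and Ift46 were counted over the whole array. A probe was counted where it was near background on 1 array, above background on the other 5, and at least 2 log2 units below the lowest of them. There were 34 such probes among the 21688 tested: 28 on mutant a, 5 on mutant c, 1 on wildtype e and 0 on the others. The members held 2 of the 34. In neither case did the scanner software mark the spot as contaminated, irregular or masked, and the cause was not tested.

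**Figure D2:**
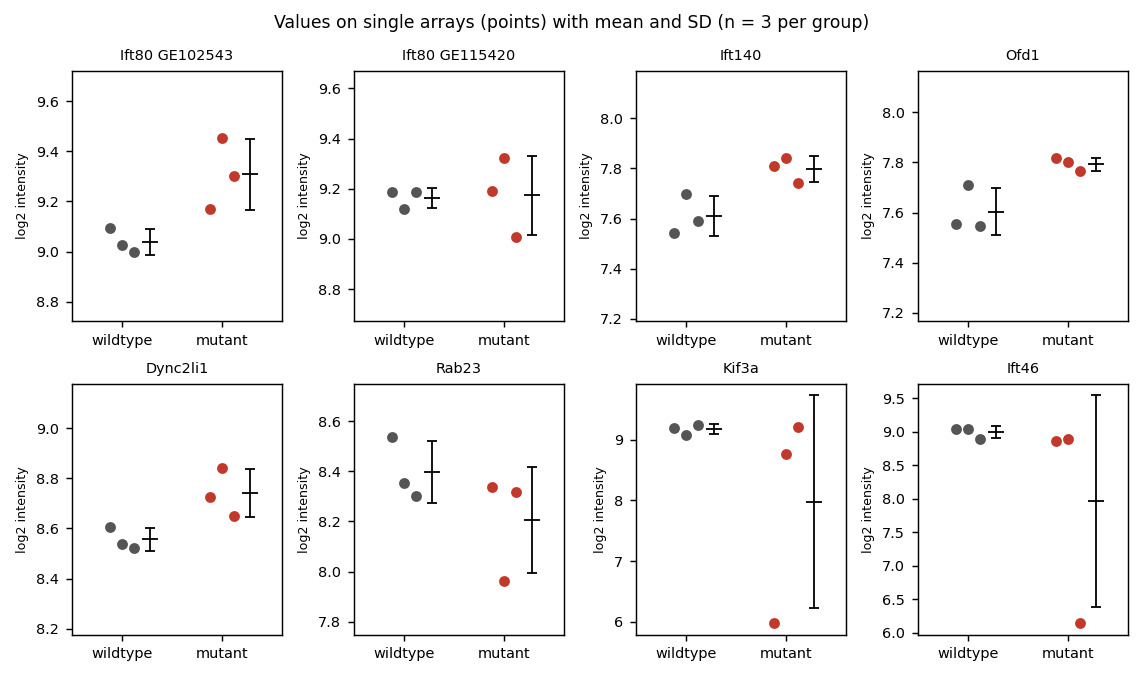
Log2 intensity on each array (points; left to right replicates d, e, f in wildtype and a, b, c in mutant) with mean and SD (n = 3 per group) for 7 members, Ift80 at both probes; the vertical scale differs between panels. Ift80 GE102543, Ift140, Ofd1 and Dync2li1 show separated groups, while the low means of Kif3a and Ift46 come from 1 mutant array each.

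BBS genes, named for Bardet-Biedl syndrome, had 7 tested probes for all 7 listed, with a median change of 0.07. The BBSome ferries membrane proteins out of the cilium, and Bbs12 is a chaperonin-like factor for its assembly. Bbs1 had the smallest p of these genes and read 7.50 and 7.52 in mutants a and b and 7.33, 7.40 and 7.36 in wildtypes; the spot of mutant c was marked irregular and set to missing. The groups did not overlap on those 5 arrays. The change was 0.15 (SE 0.08, adjusted p = 0.511). Over the alternatives it ran from 0.13 to 0.22. Bbs4 averaged 9.78 ± 0.10 in mutants and 9.77 ± 0.07 in wildtypes (SD, n = 3 each). Bbs9 was 0.11 higher (SE 0.10), Bbs5 0.09 higher (SE 0.13) and Bbs7 0.07 higher (SE 0.16). Bbs2 and Bbs12 had changes of -0.12 (SE 0.11) and -0.05 (SE 0.11). Mutant c had the lowest value of all 6 arrays for Bbs2, Bbs4, Bbs5 and Bbs7, and without it the median of the BBS genes was 0.15. That median was -0.03 without mutant b, -0.0020 without wildtype d and 0.01 without mutant a.

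Ciliary GTPases were represented by 3 of 4 listed genes, with a median change of 0.07, which was 0.02 without mutant b, 0.04 without mutant a and 0.05 without wildtype e. Rab23, a small GTPase that restrains hedgehog signalling and whose loss gives the open brain mutant with a ventralized neural tube, was the member with the lowest change after Kif3a and Ift46. It read 8.34, 7.96 and 8.32 in mutants and 8.53, 8.35 and 8.30 in wildtypes. Mutant b was the low sample, and the other mutants overlapped the wildtypes. The change was -0.19 (SE 0.12, 95% interval -0.46 to 0.08, adjusted p = 0.54), and without mutant b it was -0.07. Arl3, which releases lipidated cargo inside the cilium, was 0.13 higher (SE 0.10, adjusted p = 0.635). Arl6, which recruits the BBSome to membranes, was 0.07 higher (SE 0.08, adjusted p = 0.759).

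Hedgehog regulators at the cilium had 6 tested probes for 6 of 7 listed genes and a median change of 0.07. Sufu, the cytoplasmic inhibitor of Gli proteins, was near background on all 6 arrays (6.19 to 6.43 in mutants and 6.26 to 6.50 in wildtypes) and gave no fold change. Ofd1, a centriolar protein whose loss disturbs cilia and neural patterning, read 7.82, 7.80 and 7.76 in mutants and 7.55, 7.71 and 7.55 in wildtypes. All mutants lay above all wildtypes. The change was 0.19 (SE 0.08, unadjusted p = 0.0382, adjusted p = 0.379), and its range over the alternatives was 0.16 to 0.26. Ofd1 is the 1 member on chromosome X, where the groups also differ in Xist. The X-linked cilium genes Rp2 (-0.24, SE 0.10, adjusted p = 0.373) and Rpgr at its brighter probe (-0.21, SE 0.14, adjusted p = 0.562) had negative changes, and Dynlt3, also X-linked, had a positive one (0.06, SE 0.12, adjusted p = 0.866).

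Kif7, the kinesin that organizes the cilium tip and controls Gli proteins, had the largest change of this group. It read 7.72, 8.04 and 7.66 in mutants and 7.57, 7.69 and 7.50 in wildtypes. The lowest mutant overlapped the highest wildtype. The change was 0.22 (SE 0.11, adjusted p = 0.467), and without mutant b it was 0.10. Evc, which transmits the signal from Smo at the cilium base, was 0.13 higher (SE 0.08, adjusted p = 0.546). Gpr161, a receptor that keeps the pathway off through cAMP, averaged 9.85 ± 0.13 in mutants and 9.84 ± 0.02 in wildtypes (SD, n = 3 each), with a 95% interval of -0.19 to 0.20. Tulp3, the adaptor that brings Gpr161 into the cilium, had a change of -0.05 (SE 0.09). Rpgrip1l, a transition zone protein, varied little, at 6.94 ± 0.04 in mutants and 6.95 ± 0.04 in wildtypes (SD, n = 3 each).

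The spread between arrays was also compared. The median SD of a member probe over its arrays was 0.13 in mutants and 0.08 in wildtypes, beside 0.11 and 0.09 over all probes tested; the difference was not tested. For the BBS genes the order was the other way, at 0.10 in mutants and 0.16 in wildtypes. Against the wildtype mean of each probe, the median member stood at 0.08 in mutant a, 0.14 in mutant b and -0.01 in mutant c. In mutant b 9 of 37 usable member probes were more than 0.2 above that mean and 4 more than 0.2 below it. The wildtype arrays stood at -0.01, 0.02 and -0.02 in replicates d, e and f. Mutant c was also the dimmest array, with 57.6% of probes above background against 60.4% to 61.8% on the others. That difference in brightness moves with the low values of mutant c, and its part in them was not tested. Leaving out mutant c raised the median change of the members to 0.08, and leaving out mutant b lowered it to 0.000997.

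**Figure D3:**
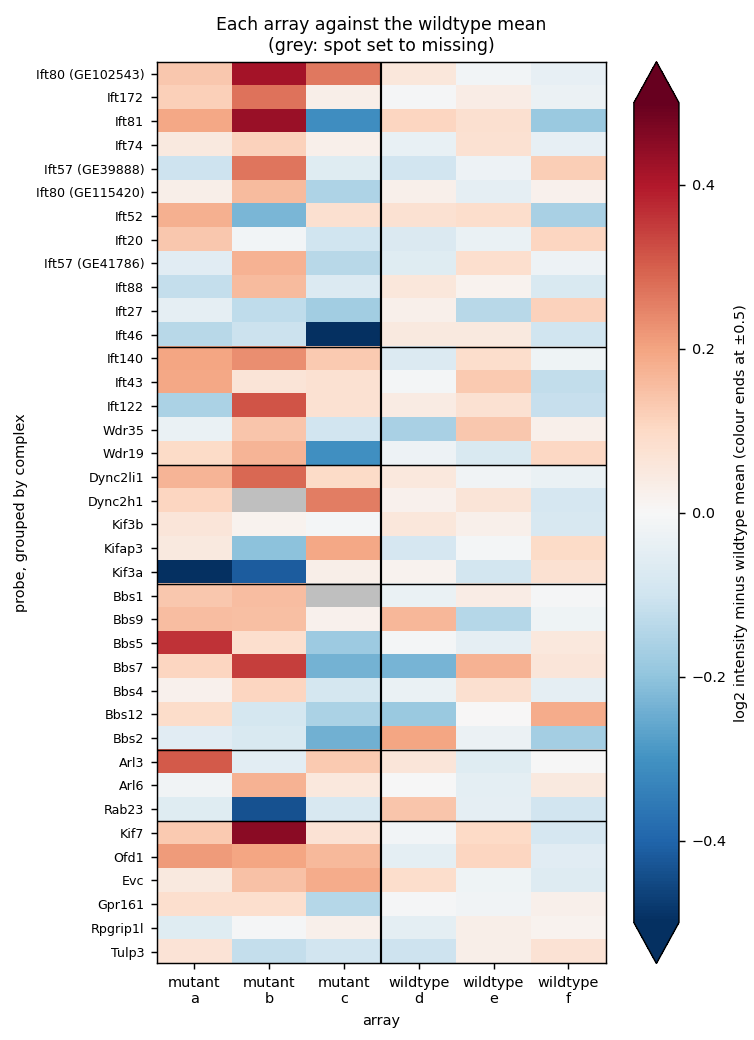
Log2 intensity of each tested member probe on each array minus the wildtype mean of that probe (colour; scale ends at 0.5 in both directions, grey for spots set to missing), with lines between the complexes and between the groups. Mutant b shows the most deep red probes, and the dark blue cells of Kif3a in mutant a and Ift46 in mutant c lie beyond the scale.

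Other genes of the primary cilium, 76 by name, had 85 tested probes for 65 genes: further IFT and motor subunits, further BBS genes, transition zone and basal body genes, and ciliary membrane proteins. Of the 85 probes 0 passed in limma, and 13 were higher and 7 lower at an unadjusted p under 0.05. That is 23.5% of them, where 12.2% of all probes tested and 10.5% of the member probes did so; the difference was not tested. Leaving out wildtype d or f brought the 13 to 8 or 4. The 7 came to 4 when mutant b or wildtype f was left out, and to 3 when wildtype e was. The 12.2% of all probes tested also fell in these fits. It came to 9.55% without wildtype d, 7.995% without wildtype f, 10.6% without mutant b and 8.95% without wildtype e. The drop in these counts is therefore not particular to cilium genes. Their median change was -0.01, and 39 of the 85 were positive.

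Among these further genes the smallest p belonged to Bbip1, the smallest BBSome subunit. It read 10.97, 11.03 and 10.71 in mutants and 10.58, 10.48 and 10.40 in wildtypes, and the groups did not overlap. The change was 0.42 (SE 0.10, unadjusted p = 0.00277, adjusted p = 0.229), larger than that of any member of the BBS group. Tctn1, a transition zone protein needed for hedgehog responses in the neural tube, was 0.29 higher (SE 0.08, adjusted p = 0.244). C2cd3, a centriolar protein needed for cilia to start, was 0.29 higher at 1 probe (SE 0.09, adjusted p = 0.276) and 0.07 higher at another (SE 0.10). Tmem231, of the transition zone, was 0.23 higher (SE 0.07, adjusted p = 0.285). Rab8a, a GTPase of traffic to the cilium, had a change of -0.25 (SE 0.07, adjusted p = 0.249). Cep20, of the centriolar satellites, had a change of -0.28 at its brighter probe (SE 0.07, adjusted p = 0.244). The dimmer Cep20 probe had a change of -1.10 (SE 0.74), with 6.26 in mutant a and 9.42 to 9.66 on the other 5 arrays, the same kind of single low spot as that of Kif3a.

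Motile cilium genes had 15 tested probes for 13 of 23 listed genes, and 0 passed (1 higher and 2 lower at an unadjusted p under 0.05). Those 3 are 20% of the 15, where 12.2% of all probes tested reached that p, and the difference was not tested. Mns1, a protein of the inner axoneme, read 7.40, 7.39 and 7.32 in mutants and 7.74, 7.83 and 7.78 in wildtypes. The groups were clearly apart, at a change of -0.41 (SE 0.07, unadjusted p = 0.000365), and the adjusted p was 0.136.

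**Figure D4:**
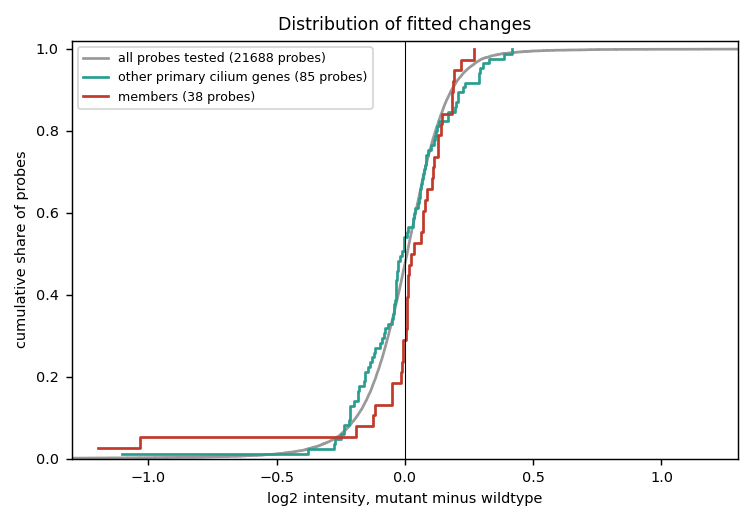
Cumulative share of probes against the change in log2 intensity (mutant minus wildtype) for all 21688 probes tested, 85 probes of other primary cilium genes and the 38 member probes; the horizontal axis is drawn from -1.3 to 1.3. The member curve is lower at 0, where 11 of 38 member probes are negative against 10322 of all 21688, and its left tail is Kif3a and Ift46.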

How the data were processed

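Posterior tissue of 3 Fkbp8 mutant and 3 wildtype embryo samples was hybridized to 1-colour arrays. Spots were quantified with CodeLink Expression Analysis 4.1.0.29054 as intensity, per the file headers; the deposited normalized intensity of the value table equalled the scanner's (largest difference 0, linear scale). Here normexp (offset 50) was applied to spot mean and background median, 339 to 508 spots an array that the scanner marked contaminated, irregular or masked were dropped as missing, and quantile normalization followed on the log2 scale. Probes marked good or saturated ("above background") on 3 or more of the 6 arrays, and usable on 2 or more of each group, entered limma 3.58.1 (lmFit, eBayes, two-sided, Benjamini-Hochberg over 21688 probes) in R 4.3.3. The fit was tested on simulated data.

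Names came from the platform annotation, updated through Entrez IDs, then RefSeq accessions, then array descriptions (22362 of 34967 probes had 1 symbol, 204 several and 12401 none). Of the 41 member probes, 10 rest on clone or EST accessions. The members and lists were chosen with earlier results of these data known. Values per array are given for each member probe with an unadjusted p under 0.05 or the smallest p of its group; Kif3a, Ift46, Kif7, Dync2h1, Ift81 and members shown for evenness were added after their values were seen. The 6 further primary cilium genes with the smallest p are named; Rp2, Rpgr, Dynlt3, Dynlrb1, Mns1 and the RFX and sex-linked genes were added after their values were seen. Alternatives changed the background correction, normalization, source of values, filter, variance model, array weights, marked spots and probe averaging, and left out each array in turn.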

Additional observations from a re-analysis of the deposited data

How the results depend on the processing

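In every alternative 0 members and 0 other primary cilium probes passed an adjusted p of 0.05 in limma. The changes of 10 member genes followed singly kept their sign in the alternatives that could give one; the filter on all 6 arrays gave none for Bbs1, Dync2h1, Ift46 and Kif3a. Counts at an unadjusted p moved more. Members higher numbered 4, but 1 with median centring, cyclic loess or the deposited values, 2 with array weights, and 0 to 5 when leaving out each array in turn. Of all probes tested, 8.48%, 12.1%, 11.6% and 12.3% reached that p with median centring, cyclic loess, deposited values and array weights, in that order. That share ran from 7.995% to 13.3% without single arrays. Members lower numbered 0, and 0 to 1 when leaving out arrays. Members higher with groups not overlapping numbered 6, but 4 with median centring or the filter on all 6 arrays. They numbered 7 with the deposited values or without the filter, and 6 to 12 without single arrays. Of the 6, Bbs1 and Dync2h1 rest on 2 mutant arrays each. Members lower numbered 1, with 0 under median centring, the deposited values or the filter on all 6 arrays, and 1 to 3 without single arrays. Groups of fewer arrays separate more easily, and the share of all probes with groups not overlapping was not counted without single arrays. The median change of the members ran from 0.000997 to 0.082 without single arrays, that of IFT-A from -0.040 to 0.13, and that of the motors from 0.0041 to 0.12. With median centring the motors stood at 0.085 and the hedgehog regulators at 0.11; without the filter, which adds Sufu, the latter stood at 0.0077. Other primary cilium probes numbered 13 higher (4 to 11 without single arrays) and 7 lower (2 with median centring, 4 with the mean of a gene's probes, 3 to 8 without single arrays). Signal over background limits Sufu and the further probes of Ift172 and Dync2li1, which give no change, and the replicate letters differ between the groups. No paired analysis was possible because the groups share no replicate label.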
